A study of Homo sapiens with 6 samples.

Results

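The histone genes of the HIST clusters were compared between PXR knockout and wild-type (WT) HepaRG cells. They were taken as every row of the expression table whose gene symbol begins with HIST1H, HIST2H, HIST3H or HIST4H. This gave 49 of 16659 genes: 4 for H1, 14 for H2A, 13 for H2B, 9 for H3 and 9 for H4. Of these, 36 are HIST1 genes on chromosome 6, 12 are HIST2 genes on chromosome 1, and HIST4H4 lies on chromosome 12; no row carried a HIST3H symbol. Among the HIST2 genes, HIST2H2BD is annotated as a transcribed pseudogene.

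HepaRG is a human cell line from a liver tumour, given in the labels as a stem cell line. PXR, the pregnane X receptor encoded by NR1I2, is a nuclear receptor that many drugs activate. RNA was sequenced from 3 libraries of cells whose genotype is given as a functional knockout of PXR and from 3 libraries of wild-type cells, the control; none of the cells had received a drug. How the knockout was made, and whether it is 1 clone, is not given in the sources used here, and nothing in the labels says that libraries came from separate cultures. The p-values therefore measure the spread between these libraries, which may be technical. The knockout libraries held 33387780, 28154244 and 33393459 estimated reads and the WT libraries 11359213, 19803543 and 20946184 estimated reads, so every knockout library was the deeper. The targeted gene NR1I2 had 13.1, 13.4 and 14.3 scaled CPM (reads divided by library size and by a factor for each library) in knockout libraries, against 8.24, 7.04 and 7.60 scaled CPM in WT libraries; a whole-gene value does not check a functional knockout. Of 8 tested markers of this cell line 8 were higher (limma, adjusted p under 0.05), ALB, TTR and APOA1 among them, where 40.3% of all genes were higher, and they summed to 35795 to 36628 scaled CPM in knockout libraries, against 1528 to 1588 scaled CPM in WT libraries. Of the leukocyte markers CD68 and LYZ were higher and CD14 was lower, with sums of 22.7 to 24.1 scaled CPM in knockout libraries, against 13.6 to 16.8 scaled CPM in WT libraries; PTPRC and CD3E were not analysed here. Of 5 tested endothelial and mesenchymal markers, 4 were higher (DCN and ACTA2 the most) and PECAM1 was lower, with sums of 398 to 414 scaled CPM in knockout libraries, against 77.9 to 82.3 scaled CPM in WT libraries; HNF4A, VWF and CDH5 were not analysed here. The part of these markers, and of the difference in depth, in the results on histone genes was not tested.

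DNA in chromatin is wound around a core of the histones H2A, H2B, H3 and H4, with linker histone H1 at the entry and exit of the strand. Most genes in the HIST clusters are replication-dependent: they are switched on at the start of S phase, through the coactivator NPAT, to supply histones for newly made DNA, and shut down when replication ends. Their mRNAs usually have no introns and end in a conserved stem-loop, bound by SLBP, in place of a poly(A) tail. Some of these genes also give longer polyadenylated transcripts, mostly described in differentiated or resting cells. The kit named in the labels is an mRNA kit, a type that selects poly(A) RNA, so the levels here cover the part of each histone mRNA that such a kit retains.

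The stem-loop is shown because it is the feature that sets these mRNAs apart. It was found in the GENCODE 29 transcripts of 27 of the 49 genes. Over all protein-coding genes it was found in 39 of 19922 (0.196%), of which 32 carry a HIST symbol. No match says only that the pattern is not in these transcript models. The 6 forms are given as DNA, 5′ to 3′, with the 4 loop bases (positions 7 to 10) in capitals.

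form of 14 genes, among them HIST1H2BG, HIST1H2AE, HIST1H2AC and HIST2H3A: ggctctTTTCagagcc
form of 5 H4 genes (HIST1H4B, HIST1H4E, HIST1H4H, HIST1H4J, HIST4H4): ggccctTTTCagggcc
form of HIST1H2BC, HIST1H2BD and HIST1H2BF: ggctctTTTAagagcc
form of HIST2H4A and HIST2H4B: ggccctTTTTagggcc
form of HIST1H2AG and HIST2H2BD: ggctctTTTCagggcc
form of HIST1H3E: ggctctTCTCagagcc

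Positions are counted from 1 at the 5′ end of these 16 bases, with the base of the most common form written first. The H4 form of 5 genes carries T4C and A13G, a paired change that keeps the stem. HIST2H4A and HIST2H4B carry C10T as well. HIST1H2BC, HIST1H2BD and HIST1H2BF differ from the most common form by C10A, the last base of the loop. HIST1H2AG and HIST2H2BD carry A13G alone, and HIST1H3E, 1 of the genes that rose, carries T8C within the loop.

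Most histone genes were lower in the knockout. Of the 48 that could be tested, 42 were lower, which is 87.5%, against 39.6% of all 16219 genes tested; 2 were higher (HIST1H3C and HIST1H3E), against 40.3% of all genes; and 4 were not called (HIST1H2AC, HIST1H2BE, HIST2H2BD and HIST2H4B). A gene was called at an adjusted p under 0.05 with limma, adjusted over all genes tested. Both directions together took 79.9% of all genes, so a call by itself is common in this comparison. The median log2 change of the histone genes was -0.99, beside 0.014 for all genes. At a log2 change of -1 or less 23 histone genes were called, against 10.1% of all genes. The groups did not overlap for 44 of the 48, against 80.8% of all genes. In bulk RNA, fewer cells in S phase and less histone RNA per cell cannot be told apart.

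Of the tested genes, 45 were above 1 scaled CPM in all 6 libraries and 0 entered through the values of 1 group only. The untested gene was HIST1H1T, the linker histone of testis, with 0.53 ± 0.14 scaled CPM in the knockout and 1.09 ± 0.10 scaled CPM in WT (SD, n = 3 each). The smallest number of estimated reads behind a tested gene over the 3 libraries of a group was 53.

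Summed over all 49 genes, the histone level was 1223, 1310 and 1267 scaled CPM in knockout libraries 1 to 3, against 2295, 2406 and 2444 scaled CPM in WT libraries 1 to 3. Every knockout sum was below every WT sum, and the knockout mean was 1.88-fold below the WT mean. A sum does not depend on how reads were divided between the members it adds up. Some members, however, share windows of sequence with genes outside their class sum. Examples are HIST1H4J with HIST1H4K, HIST1H2AI with HIST1H2AJ, HIST1H2BK with H2BFS, and HIST1H2AM with HIST1H3J. HIST2H2BD also shares windows with HIST2H2BC, and HIST2H2BF with HIST2H2BA. The sums have no test of their own here. By class, the summed level averaged 215 ± 7.35 scaled CPM in the knockout and 331 ± 9.05 scaled CPM in WT for H1, a log2 ratio of -0.62. For H2A it averaged 348 ± 13.6 scaled CPM in the knockout and 592 ± 27.1 scaled CPM in WT (log2 ratio -0.77). The H2B sum was 297 ± 6.27 scaled CPM in the knockout and 580 ± 17.99 scaled CPM in WT (log2 ratio -0.96). The core histones of the inner tetramer, H3 and H4, had the lowest ratios. The H3 sum was 146 ± 6.11 scaled CPM in the knockout and 315 ± 15.4 scaled CPM in WT (log2 ratio -1.11). The H4 sum was 260 ± 12.7 scaled CPM in the knockout and 564 ± 11.6 scaled CPM in WT (log2 ratio -1.12).

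**Figure D1:**
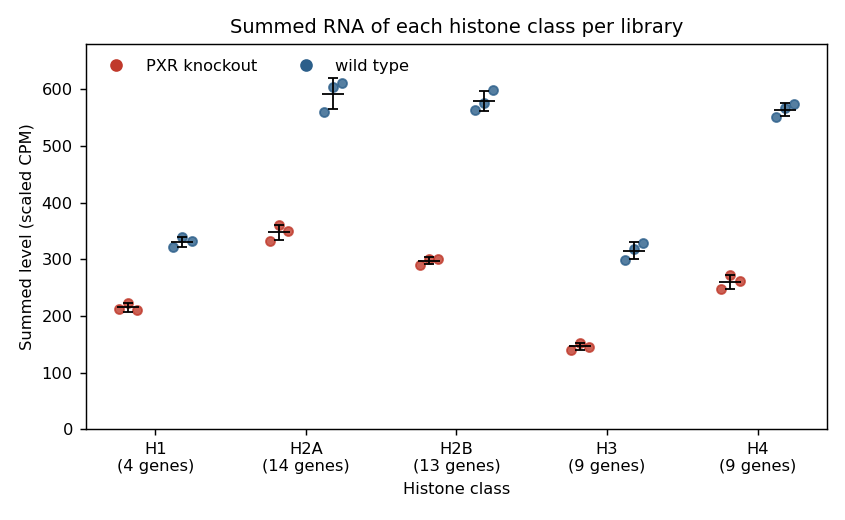
Summed level of each histone class (y axis, scaled CPM) in the 3 PXR knockout and 3 WT libraries; points are libraries, bars the mean and SD. In all 5 classes every knockout library lies below every WT library.

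**Figure D2:**
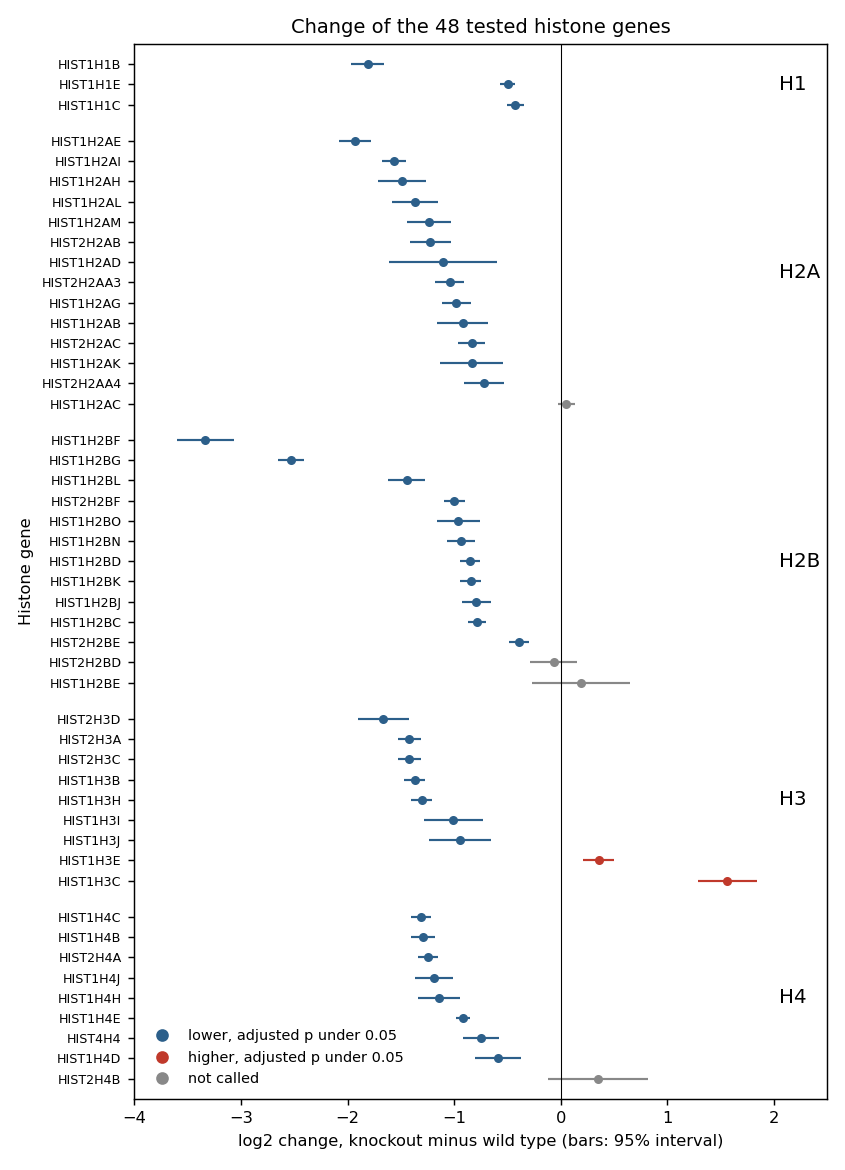
Log2 change of each of the 48 tested histone genes (x axis, knockout minus WT, with its 95% interval), grouped by class. The 42 lower genes lie left of 0, and HIST1H3C and HIST1H3E lie right of it.

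Linker histones bind where DNA enters and leaves the nucleosome. All 3 tested H1 genes were lower in the knockout, with a median log2 change of -0.50. HIST1H1B (chromosome 6, 27866849 to 27867529), which encodes H1.5, had 15.03, 17.6 and 14.1 scaled CPM in knockout libraries, against 52.3, 58.4 and 56.1 scaled CPM in WT libraries. The groups were far apart, and its log2 change was -1.81 ± 0.072 (SE; limma adjusted p = 1.3e-11). HIST1H1E (H1.4) and HIST1H1C (H1.2), which drew the most reads of the class, had smaller log2 changes. HIST1H1C had 106, 117 and 107 scaled CPM in knockout libraries, against 147, 151 and 146 scaled CPM in WT libraries (log2 change -0.43 ± 0.036, limma adjusted p = 6.6e-08). HIST1H1E averaged 89.0 ± 0.51 scaled CPM in the knockout and 126 ± 4.62 scaled CPM in WT (log2 change -0.50 ± 0.033). The make-up of H1 RNA, given with no test, differed with them: HIST1H1B was 7.23 ± 0.59% of the H1 sum in the knockout and 16.8 ± 0.48% in WT, and HIST1H1C was 51.1 ± 0.998% in the knockout and 44.8 ± 0.95% in WT.

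Of 14 H2A genes, 13 were lower in the knockout and 1 was not called; the median log2 change was -1.07. HIST1H2AE (chromosome 6, 26216975 to 26217483) fell most, with 8.81, 8.96 and 9.62 scaled CPM in knockout libraries, against 32.9, 37.8 and 38.2 scaled CPM in WT libraries. The groups did not overlap, and the log2 change was -1.93 ± 0.070 (limma adjusted p = 5.3e-12). HIST1H2AI, HIST1H2AH and HIST1H2AL followed, with log2 changes of -1.56, -1.49 and -1.37. HIST1H2AI shares 57.7% of its 100-base windows (stretches of its transcripts as long as a read) with the neighbouring gene HIST1H2AJ, so its level is uncertain. The other called H2A genes lay between -1.24 (HIST1H2AM, which shares 84.0% of its windows with HIST1H3J) and -0.72 (HIST2H2AA4). HIST1H2AD, a gene with few reads, had 0.445, 1.38 and 1.48 scaled CPM in knockout libraries, against 2.64, 2.41 and 3.33 scaled CPM in WT libraries (log2 change -1.10 ± 0.24). Its groups were apart, but knockout library 1 lay well below the other knockout libraries. Another tested gene with more reads, AL031777.3, overlaps HIST1H2AD on the same strand, so the level of HIST1H2AD is uncertain.

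HIST1H2AC (chromosome 6, 26124145 to 26139116) was the exception among H2A genes, and drew the most reads of the class. Its level was 123, 129 and 129 scaled CPM in knockout libraries, against 116, 129 and 122 scaled CPM in WT libraries. The groups overlapped, and its log2 change of 0.05 ± 0.037 was not called (limma adjusted p = 0.21; 95% interval -0.03 to 0.13). Without WT library 2 the change was 0.087 and called (limma adjusted p = 0.0427), and with libraries scaled to equal sums it was -0.086 and called in the other direction (limma adjusted p = 0.0339). As the rest of the class was lower, HIST1H2AC made up 36.5 ± 0.62% of the H2A sum in the knockout and 20.7 ± 0.61% in WT. HIST2H2AA3 and HIST2H2AA4, a duplicated pair that shares 100% and 96.8% of its windows, were added together because their reads cannot be told apart. Their sum was 114, 127 and 121 scaled CPM in knockout libraries, against 210, 225 and 230 scaled CPM in WT libraries (log2 change -0.88 ± 0.042, limma adjusted p = 9.4e-11).

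Of 13 H2B genes, 11 were lower in the knockout and 2 were not called; the median log2 change was -0.85. The 2 largest falls of any histone gene were in this class. HIST1H2BF (chromosome 6, 26199520 to 26200715) had 0.95, 1.48 and 1.34 scaled CPM in knockout libraries, against 16.2, 16.8 and 18.3 scaled CPM in WT libraries. The knockout mean was 13.6-fold below the WT mean, resting on 114 estimated reads in the knockout and 953 in WT. With 0.5 added before taking log2, which makes changes of low genes look smaller, it fell by 3.33 (SE 0.12, limma adjusted p = 7.0e-12). Among all genes tested, 120 fell further. HIST1H2BG (chromosome 6, 26215159 to 26216692) had 11.6, 10.96 and 12.04 scaled CPM in knockout libraries, against 64.5, 70.3 and 71.97 scaled CPM in WT libraries, and fell by 2.53 (SE 0.056, limma adjusted p = 2.8e-14). HIST1H2BG made up 3.88 ± 0.21% of the H2B sum in the knockout and 11.9 ± 0.38% in WT. The windows of these genes are shared with no other histone gene.

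HIST1H2BL fell by 1.45 on the log2 scale. HIST2H2BF averaged 44.4 ± 2.84 scaled CPM in the knockout and 89.1 ± 3.29 scaled CPM in WT. The other called H2B genes apart from HIST1H2BC and HIST2H2BE lay between -0.96 (HIST1H2BO) and -0.79 (HIST1H2BJ). The H2B genes that drew the most reads fell less than HIST1H2BG. HIST1H2BC averaged 57.5 ± 2.06 scaled CPM in the knockout and 99.5 ± 3.17 scaled CPM in WT (log2 change -0.79 ± 0.037). HIST2H2BE averaged 58.6 ± 3.40 scaled CPM in the knockout and 77.2 ± 2.51 scaled CPM in WT (log2 change -0.40 ± 0.043, limma adjusted p = 1.1e-06), the smallest fall among the called histone genes. HIST2H2BE was 19.7 ± 0.93% of the H2B sum in the knockout and 13.3 ± 0.19% in WT. The pseudogene HIST2H2BD averaged 6.45 ± 0.19 scaled CPM in the knockout and 6.81 ± 0.78 scaled CPM in WT (log2 change -0.07 ± 0.10, limma adjusted p = 0.56). HIST1H2BE averaged 1.05 ± 0.22 scaled CPM in the knockout and 0.90 ± 0.45 scaled CPM in WT (log2 change 0.19 ± 0.21, limma adjusted p = 0.42), and its 95% interval ran from -0.27 to 0.65.

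**Figure D3:**
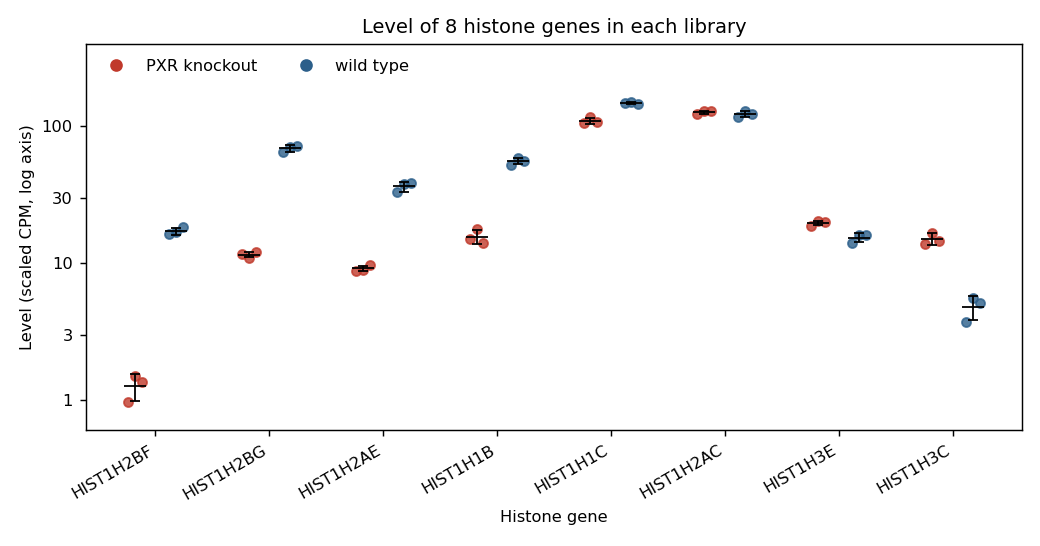
Level of 8 histone genes (y axis, scaled CPM on a log axis) in each library; points are libraries, bars the mean and SD, knockout left of WT. HIST1H2BF and HIST1H2BG are far lower in the knockout, HIST1H2AC overlaps between groups and HIST1H3C is higher in the knockout.

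The promoters of HIST1H2BF and HIST1H2BG are shown because these genes fell most. They are RefSeq sequences (GRCh38.p14) from 250 bases before to 50 after the gene's start, 5′ to 3′ on the gene's strand: chr6:26199266-26199565 on the plus strand for HIST1H2BF and chr6:26216639-26216938 on the minus strand for HIST1H2BG. Capitals mark 4 motifs searched on both strands: CCAAT, bound by NF-Y; TATAAA, the TATA box; ATTTGCAT, the octamer bound by OCT1 (POU2F1) that is known from H2B promoters; and GGTCCG, the core of the H4 site bound by HINFP. The motifs share no letters with each other in these windows.

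HIST1H2BF: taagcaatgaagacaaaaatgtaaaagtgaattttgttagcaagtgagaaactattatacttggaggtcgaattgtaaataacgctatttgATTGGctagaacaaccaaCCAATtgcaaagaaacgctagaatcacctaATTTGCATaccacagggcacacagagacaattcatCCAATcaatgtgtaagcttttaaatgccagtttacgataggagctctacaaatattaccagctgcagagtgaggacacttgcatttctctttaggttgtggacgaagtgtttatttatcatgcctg
HIST1H2BG: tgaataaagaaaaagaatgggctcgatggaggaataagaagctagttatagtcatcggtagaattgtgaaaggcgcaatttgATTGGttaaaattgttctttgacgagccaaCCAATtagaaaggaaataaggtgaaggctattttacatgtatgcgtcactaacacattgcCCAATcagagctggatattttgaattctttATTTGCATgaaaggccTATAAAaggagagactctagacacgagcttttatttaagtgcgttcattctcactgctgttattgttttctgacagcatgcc

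Both windows hold 3 CCAAT motifs, of which the first reads ATTGG on the gene's strand, and 1 octamer. TATAAA was found once in HIST1H2BG, after the octamer, and not in HIST1H2BF. A promoter window was found for 44 of the 49 genes. CCAAT was in 36 of them (81.8%), against 34.6% of 35116 promoters of all genes, and TATAAA was in 30 (68.2%), against 11.5%. Matches to TATAAA were counted on either strand and anywhere in the window, so this is not the share of promoters with a TATA box. In HIST1H2AE, for example, the only match reads TTTATA and is the TATAAA of HIST1H2BG seen from the other strand. The octamer was in 18 (40.9%), against 1.77%, and these were 9 of the 13 H2A windows and 9 of the 12 H2B windows. Windows of H2A and H2B genes that start beside each other overlap, as those of HIST1H2AE and HIST1H2BG do, so 1 site can count in both. Duplicated copies, such as HIST2H3A and HIST2H3C, also repeat the same motifs in these shares. The windows are thus not independent of each other. Matches are a description of the letters and not of binding.

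The H3 genes held both the largest median fall and the only rises. Of 9, 7 were lower, 2 were higher and the median log2 change was -1.30. HIST2H3D averaged 3.16 ± 0.46 scaled CPM in the knockout and 11.1 ± 0.72 scaled CPM in WT (log2 change -1.66 ± 0.11, limma adjusted p = 4.8e-09); it shares 51.3% of its windows with other genes, so its level is uncertain. HIST2H3A and HIST2H3C are identical over all their windows and had identical values in every library. Their sum was 51.8, 55.6 and 53.2 scaled CPM in knockout libraries, against 136, 146 and 155 scaled CPM in WT libraries. The groups were far apart (log2 change -1.43 ± 0.045, limma adjusted p = 8.8e-13). HIST1H3B averaged 24.3 ± 0.83 scaled CPM in the knockout and 63.5 ± 2.82 scaled CPM in WT (log2 change -1.37 ± 0.046). HIST1H3H, HIST1H3I and HIST1H3J had log2 changes of -1.30, -1.01 and -0.94. HIST1H3J shares 36.5% of its windows with HIST1H2AM, so its level is uncertain.

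HIST1H3C (chromosome 6, 26045411 to 26045821) went against the class. Its level was 13.7, 16.7 and 14.5 scaled CPM in knockout libraries, against 3.71, 5.55 and 5.08 scaled CPM in WT libraries. Every knockout library was above every WT library, and the knockout mean was 3.13 times the WT mean (log2 change 1.56 ± 0.13, limma adjusted p = 3.8e-08). HIST1H3E had 18.8, 20.2 and 20.1 scaled CPM in knockout libraries, against 14.0, 16.0 and 15.9 scaled CPM in WT libraries. It rose by a smaller margin, with no overlap of the groups (log2 change 0.35 ± 0.069, limma adjusted p = 2.9e-04). HIST1H3C was 10.2 ± 0.61% of the H3 sum in the knockout and 1.51 ± 0.25% in WT, and HIST1H3E was 13.4 ± 0.29% in the knockout and 4.85 ± 0.16% in WT. Neither shares a window with another histone gene. The promoter of HIST1H3C (chr6:26045134-26045433, plus strand, RefSeq, GRCh38.p14) is shown as that of the gene with the largest rise, with the same motifs in capitals.

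HIST1H3C: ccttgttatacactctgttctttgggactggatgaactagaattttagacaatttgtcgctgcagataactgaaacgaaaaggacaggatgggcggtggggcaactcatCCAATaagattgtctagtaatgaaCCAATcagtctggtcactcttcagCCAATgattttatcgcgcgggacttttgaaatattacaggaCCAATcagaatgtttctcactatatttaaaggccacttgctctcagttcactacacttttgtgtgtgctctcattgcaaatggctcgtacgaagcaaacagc

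It holds 4 CCAAT motifs and no match to the other 3 motifs. All 7 H3 promoter windows that were found hold CCAAT, so its presence does not set HIST1H3C apart from the H3 genes that fell. TATAAA was in 6 of the 7, that of HIST1H3E among them, and HIST1H3C was the one without an exact match. The match in HIST1H3E reads TTTATA on the gene's strand and lies further before the start than those of the other H3 windows. The HIST1H3C window holds tatatttaaa shortly before its start, which is similar to TATAAA but was not counted. These counts thus do not show that HIST1H3C lacks a TATA box that HIST1H3E has. Whether these letters bear on the level of HIST1H3C was not tested.

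Of 9 H4 genes, 8 were lower in the knockout and 1 was not called; the median log2 change was -1.14. HIST1H4C and HIST1H4B fell most. HIST1H4C had 27.1, 29.9 and 28.1 scaled CPM in knockout libraries, against 69.7, 69.8 and 73.6 scaled CPM in WT libraries (log2 change -1.31 ± 0.045, limma adjusted p = 2.9e-12). HIST1H4B averaged 22.1 ± 0.51 scaled CPM in the knockout and 54.9 ± 3.68 scaled CPM in WT (log2 change -1.29 ± 0.052). HIST1H4J fell by 1.19 on the log2 scale; it shares 77.7% of its windows with HIST1H4K. HIST1H4E, with 54.4, 54.97 and 55.4 scaled CPM in knockout libraries, against 106, 102 and 104 scaled CPM in WT libraries, fell by 0.92 (SE 0.032). HIST4H4, alone on chromosome 12, averaged 10.54 ± 0.76 scaled CPM in the knockout and 18.04 ± 1.24 scaled CPM in WT (log2 change -0.75 ± 0.078). HIST1H4H and HIST1H4D fell by 1.14 and 0.59.

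HIST2H4A and HIST2H4B share 94.9% and 97.1% of their windows, and the deposited values divide the reads between them unevenly. HIST2H4A had 71.2, 78.1 and 74.8 scaled CPM in knockout libraries, against 167, 184 and 184 scaled CPM in WT libraries (log2 change -1.25 ± 0.043). HIST2H4B had 13.6, 11.9 and 12.6 scaled CPM in knockout libraries, against 16.0, 9.44 and 6.32 scaled CPM in WT libraries, where the libraries differed most from each other. HIST2H4B was not called (log2 change 0.35 ± 0.22, limma adjusted p = 0.16), but without WT library 1 its change was 0.68 and called (limma adjusted p = 2.0e-04). Added together, the pair had 84.8, 90.04 and 87.4 scaled CPM in knockout libraries, against 183, 194 and 190 scaled CPM in WT libraries (log2 change -1.11 ± 0.033, limma adjusted p = 5.3e-13). With these 3 duplicated pairs summed, 40 features were lower and 2 higher. The promoter of HIST2H4A (chr1:149832407-149832706, plus strand, RefSeq, GRCh38.p14) is shown as an example of an H4 promoter.

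HIST2H4A: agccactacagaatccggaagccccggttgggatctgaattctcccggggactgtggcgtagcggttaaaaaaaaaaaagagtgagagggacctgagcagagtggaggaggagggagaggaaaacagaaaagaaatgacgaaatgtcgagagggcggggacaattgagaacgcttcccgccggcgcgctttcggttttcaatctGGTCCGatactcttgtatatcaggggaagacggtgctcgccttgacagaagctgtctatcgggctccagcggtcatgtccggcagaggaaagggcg

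It holds GGTCCG and no match to the other 3 motifs. GGTCCG was in all 8 H4 promoter windows and in 10 of the 44 histone windows (22.7%), against 11.3% of promoters of all genes. The windows of HIST2H4A and HIST2H4B read the same. Those of HIST2H2AC and HIST2H2BE, the only others with GGTCCG, overlap each other. CCAAT was in 0 of the 8 H4 windows.

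Per kilobase of exon, the order of levels differed between the groups. In the knockout HIST1H1C was the highest, at 171 scaled CPM per kb, ahead of HIST1H4J at 130 and HIST2H2AA4 at 124 scaled CPM per kb. In WT HIST1H4J was the highest, at 295 scaled CPM per kb, ahead of HIST1H1C at 231 and HIST2H2AA4 at 207 scaled CPM per kb. HIST1H4J and HIST2H2AA4 share most of their windows with a copy, so their place in this order is uncertain.

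H2A and H2B genes of the clusters often lie head to head. By their GENCODE 29 gene starts, 9 such pairs had both members tested, with starts 139 to 331 bases apart. HIST1H2AK and HIST1H2BN, which are head to head by their RefSeq starts (27838375 and 27838569), are not among the 9 pairs. The GENCODE 29 gene of HIST1H2BN starts further upstream, at 27837760, and overlaps HIST1H2AK. Their log2 changes were -0.84 and -0.94. Both members were lower in 7 of the 9 pairs. H2A had the lower log2 change in 6 pairs and H2B in 3. The members of HIST1H2AC and HIST1H2BC, whose starts lie 219 bases apart, had log2 changes of 0.05 and -0.79. The log2 ratio of HIST1H2AC to HIST1H2BC was 1.15, 1.15 and 1.11 in knockout libraries, against 0.28, 0.35 and 0.26 in WT libraries. HIST1H2AD and HIST1H2BF had log2 changes of -1.10 and -3.33, and the log2 ratio of HIST1H2AD to HIST1H2BF was -0.62, -0.08 and 0.11 in knockout libraries, against -2.41, -2.57 and -2.29 in WT libraries. Neither ratio overlapped between the groups. AL031777.3 overlaps HIST1H2AD on the same strand, so the ratio of HIST1H2AD to HIST1H2BF depends on how reads of the overlap were divided. HIST1H2AE and HIST1H2BG both fell strongly, by 1.93 and 2.53. HIST2H2AA3, whose reads cannot be told from those of HIST2H2AA4, and HIST2H2BD had log2 changes of -1.04 and -0.07. In a two-sided exact permutation test over libraries, 7 of the 9 differences reached p = 0.1, the smallest that 3 against 3 libraries can give (adjusted over the 9 pairs, p = 0.129), so this design cannot pass 0.05 for a single pair.

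**Figure D4:**
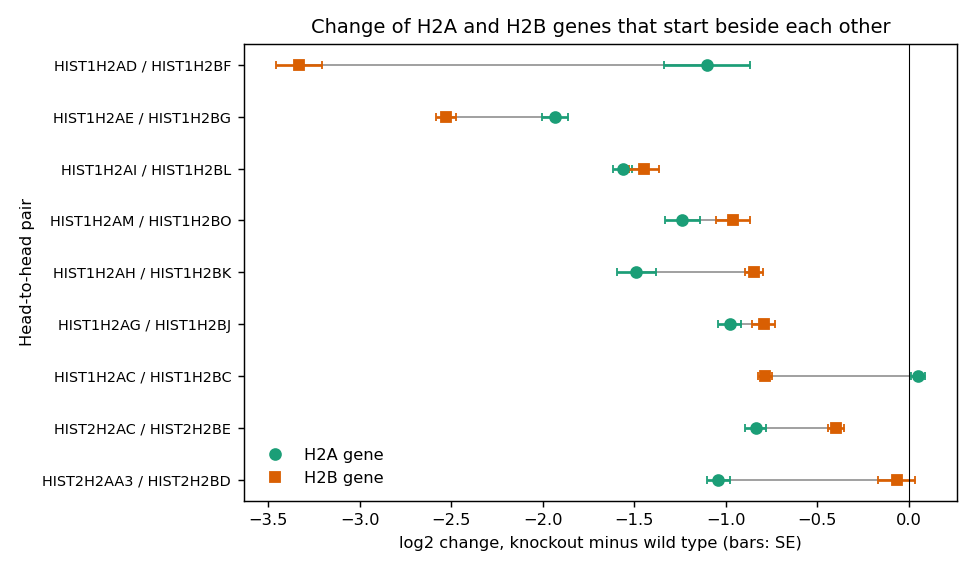
Log2 change (x axis, knockout minus WT, bars SE) of the H2A gene (circle) and the H2B gene (square) of each of 9 head-to-head pairs. The pairs HIST1H2AD with HIST1H2BF and HIST1H2AC with HIST1H2BC lie far apart, and HIST1H2AI with HIST1H2BL lie close together. The level of HIST1H2AD is uncertain, as AL031777.3 overlaps it.

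Falls were spread over the clusters. On chromosome 6 the members form 3 blocks. In the first (26026815 to 26285638) 15 of 19 tested genes were lower and 2 higher, with a median log2 change of -0.92. In the second (27125897 to 27147515) all 4 were lower (median -0.91), and in the third (27807444 to 27893843) all 12 were lower (median -1.21). The 2 rises, the 2 largest falls and the uncalled HIST1H2AC and HIST1H2BE all lie in the first block. On chromosome 1, 10 of 12 were lower and 2 were not called (median -1.02). All tested genes of chromosome 6 had a median log2 change of -0.046, those of chromosome 1 -0.040 and those of chromosome 12 0.33.

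Genes of other kinds also lie in the HIST1 region of chromosome 6, nearly all of them in the gaps between its blocks. Of 17 that were tested and overlap no histone gene, 11 were higher in the knockout, 2 were lower and 4 were not called, with a median log2 change of 0.49. Among these, only HFE lies within a block of histone genes. Of all genes tested on chromosome 6, 36.1% were higher and 45.006% lower. Of 6 tested genes with butyrophilin symbols (BTN3A2, BTN2A2, BTN3A1, BTN2A3P, BTN3A3 and BTN2A1), 6 were higher, by 0.40 to 0.85 on the log2 scale. Butyrophilins are cell-surface proteins of the immunoglobulin superfamily, but BTN2A3P, which had the largest rise of the 6, is annotated as a transcribed pseudogene. HMGN4, for a nucleosome-binding protein, had the largest fall (60.7 ± 2.67 scaled CPM in the knockout and 109 ± 2.86 scaled CPM in WT, log2 change -0.84). AL031777.3, a transcript that overlaps HIST1H2AD on the same strand, was lower as well (log2 change -1.20), and reads of the overlap cannot be told apart.

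**Figure D5:**
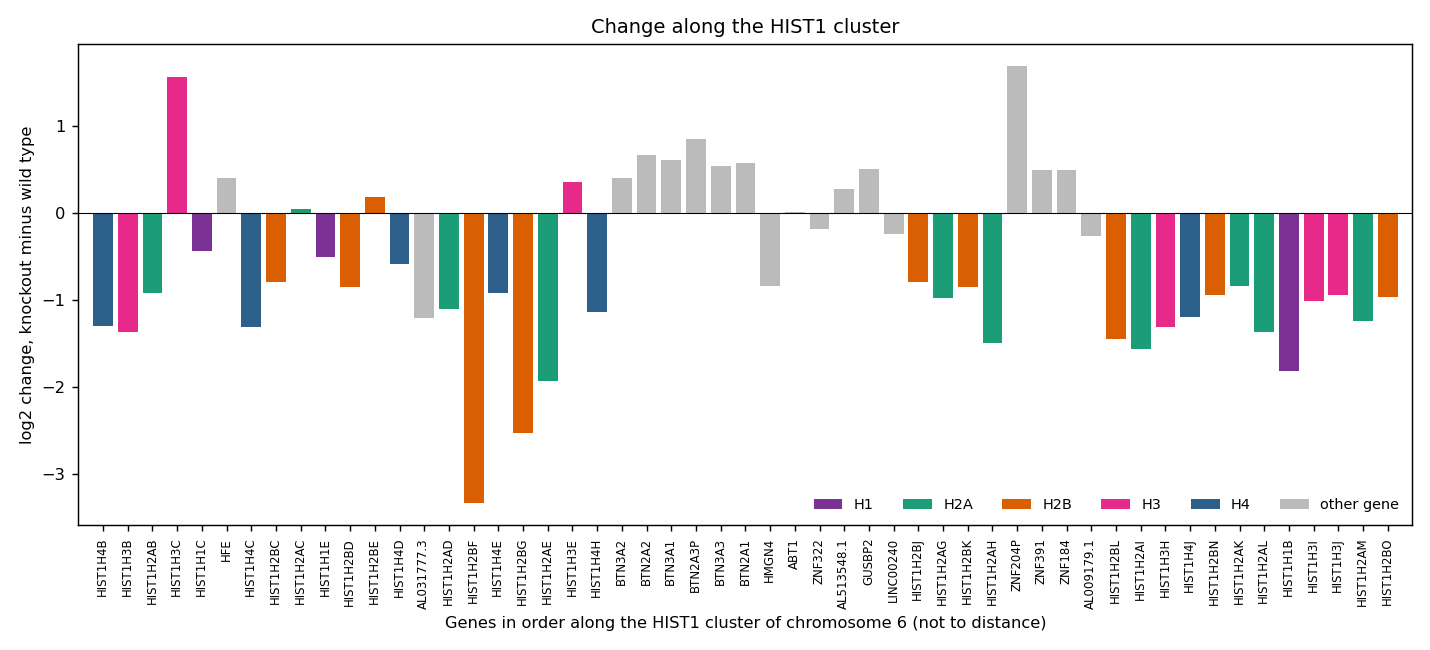
Log2 change (y axis, knockout minus WT) of each tested gene in order along the HIST1 region of chromosome 6; colours mark the histone classes and grey other genes. Histone genes are mostly below 0 and the other genes, nearly all of them in the gaps between the histone blocks, mostly above it.

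Transcript ends divided the histone genes in another way. For 20 of them GENCODE 29 lists a transcript with AATAAA or ATTAAA within 40 bases of its end and, where that transcript holds a stem-loop, after it. Of these 20, 15 were lower, 1 was higher (HIST1H3E) and 4 were not called, with a median log2 change of -0.88. Of the 28 tested genes without such a transcript, 27 were lower, 1 was higher (HIST1H3C) and 0 were not called, with a median of -1.21. All 4 uncalled genes are thus among those with an annotated poly(A) end. Within classes the medians were -0.85 with and -1.23 without such an end for H2A, -0.79 with and -1.45 without for H2B, -1.36 with and -1.01 without for H3, and -1.03 with and -1.19 without for H4. H3 ran the other way from the others. Of 8 histone genes often described as polyadenylated in differentiated cells, 7 were lower and 1 (HIST1H2AC) was not called, with a median of -0.79. HIST1H4H and HIST1H2BD fell most among these, by 1.14 and 0.85. HIST1H2BK and HIST1H1C are among these 8 but count as without an annotated poly(A) end. Their models, of 381 and 642 bases, hold no stem-loop either, so the split depends on how complete the transcript models are. HIST1H2BF and HIST1H2BG, with the 2 largest falls, and HIST4H4 also count as without such an end. Their longest models run to 1196, 1534 and 1918 bases, so a gene without such an end need not have a short model. The groups with and without such an end also differ in class and in reads shared between copies, and the difference between them was not tested.

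Genes of histone variants outside the HIST clusters, most of which are not tied to S phase and have ordinary poly(A) tails, were divided. Of 11 tested, 6 were lower and 5 higher, with a median log2 change of -0.27. Of all genes 39.6% were lower and 40.3% higher, with a median of 0.014. CENPA, the centromeric H3 variant, whose expression peaks in G2, had 4.004, 4.07 and 3.92 scaled CPM in knockout libraries, against 10.6, 11.3 and 10.7 scaled CPM in WT libraries (log2 change -1.34 ± 0.090). H2AFX, whose product is phosphorylated at DNA breaks and which also gives a replication-linked stem-loop mRNA, averaged 14.3 ± 1.26 scaled CPM in the knockout and 28.6 ± 2.25 scaled CPM in WT (-0.98). H2AFZ (H2A.Z) was lower by a smaller margin, with a log2 change of -0.55. H1F0, the linker histone of resting and differentiated cells, was higher: 21.1, 20.001 and 21.5 scaled CPM in knockout libraries, against 11.95, 10.7 and 11.5 scaled CPM in WT libraries (log2 change 0.85 ± 0.068, limma adjusted p = 3.4e-08). H3F3B, 1 of the genes for the replacement histone H3.3, averaged 365 ± 3.85 scaled CPM in the knockout and 231 ± 3.93 scaled CPM in WT (log2 change 0.66 ± 0.025). No overlap was seen for either gene.

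Factors that make, process or degrade histone mRNA were more often lower than higher. Of 21 tested, 14 were lower (all genes, 39.6%) and 3 higher (all genes, 40.3%), with a median log2 change of -0.33 (all genes, 0.014). NPAT, the coactivator of histone transcription, had 29.2, 26.9 and 30.03 scaled CPM in knockout libraries, against 47.2, 49.4 and 51.95 scaled CPM in WT libraries (log2 change -0.78 ± 0.052, limma adjusted p = 4.5e-09). SLBP, the stem-loop binding protein, had 35.3, 35.3 and 34.1 scaled CPM in knockout libraries, against 48.1, 45.2 and 49.7 scaled CPM in WT libraries (log2 change -0.44 ± 0.045, limma adjusted p = 4.5e-07). Both were lower in every knockout library than in any WT library. The largest falls were those of CSTF2 (-1.30) and CPSF3 (-1.04), subunits of the cleavage machinery. POU2F1, for the factor of the octamer shown above, had a log2 change of -0.39 (limma adjusted p = 3.4e-06), while HINFP, for the factor of the H4 site, had 0.07 and was not called (limma adjusted p = 0.33). SP1 and MIF4GD rose most, by 0.46 and 0.36.

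Histone chaperones, which carry histones to DNA, were lower for 19 of 24 genes, against 39.6% of all genes, and higher for 2, against 40.3% of all genes; their median log2 change was -0.71, beside 0.014 for all genes. MCM2, a helicase subunit that also holds H3 and H4, averaged 27.1 ± 0.72 scaled CPM in the knockout and 108 ± 3.72 scaled CPM in WT (-1.97), and SSRP1, a subunit of FACT, fell by 1.34. CHAF1A, of the complex that loads H3 and H4 behind the replication fork, fell by 1.21, and HIRA, of the complex that loads H3.3 outside replication, by 0.71. UBN2 and ATRX, which also serve H3.3 deposition, rose by 0.43 and 0.10.

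Genes tied to S phase, in a list that also holds the inhibitors CDKN1A and CDKN1B, were mostly lower as well. Of 31 tested, 25 were lower, where 39.6% of all genes were, and 4 higher, where 40.3% of all genes were. The median log2 change was -1.27, beside 0.014 for all genes; SLBP is counted here as well. MCM5, a helicase subunit, and E2F2, a transcription factor of S-phase genes, fell by 2.85 and 2.61. CCNE2, a cyclin E gene, averaged 6.79 ± 0.97 scaled CPM in the knockout and 18.2 ± 0.86 scaled CPM in WT (log2 change -1.37). CDK2, its kinase, had a log2 change of 0.01 and was not called (limma adjusted p = 0.85). CDKN1A, the inhibitor p21 that blocks cyclin E with CDK2, rose by 4.22, and TYMS by 0.68. The other higher genes of the list were CDKN1B (0.50) and PCNA (0.23, limma adjusted p = 6.7e-06). The share of cells in S phase was not measured, and the part of these genes in the fall of the histone genes was not tested.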

How the data were processed

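RNA of HepaRG cells was measured in 6 libraries, 3 of a PXR knockout and 3 of wild type, grouped by the labels' titles. Per the labels' protocols, total RNA went through a stranded mRNA kit and was read as paired ends. Tools in the submitters' processing notes are Trim Galore, FastQC, Bowtie2, limma and edgeR, and the build is hg38; sample titles begin with RSEM, which estimates counts. The sources used here give no annotation release, filter or scaling. The authors' deposited values are a signal on a linear scale, CPM multiplied by a factor per library (scaled CPM here). Steps of the low values gave the depth, 11359213 to 33393459 estimated reads per library, with 1 read worth 0.031 to 0.082 scaled CPM. Only 67.2% to 76.4% of values under 20 reads were whole, so no count test was run.

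The table held 16673 rows; 14 second pseudoautosomal copies were dropped, 21 symbols turned into dates were restored and 16608 identifiers, all 49 histone genes among them, matched GENCODE 29 (GRCh38). Genes above 1 scaled CPM in at least 3 of 6 libraries were tested with limma 3.58.1 in R 4.3.3 on log2(scaled CPM + 0.5), with a mean-variance trend, two-sided, Benjamini-Hochberg adjusted over 16219 genes at 0.05. The fit was tested on simulated data. Errors are SD over 3 libraries for levels and SE for log2 changes, which are knockout minus WT. Shared 100-base windows of a transcript were searched for in GENCODE 29 among genes with histone symbols only, so sharing with other kinds of genes is not covered. Promoters are RefSeq sequences of GRCh38.p14, matched for 40 genes by identifier and for 4 by synonym and position. Other steps used Python 3.11.15 with scipy 1.17.1, matplotlib 3.10.9 (figures), numpy 2.4.6 and pandas 2.3.3.

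Named genes were the up to 4 largest rises and falls and the 2 highest levels of each class, and the up to 2 largest rises and falls of each other list; others were named after their values were seen. The members and lists were chosen with earlier results of these data known. No pair of replicates agreed within sampling noise (mean chi-square per gene 2.25 to 9.80). The alternatives were other pseudocounts, filters and scalings, each library left out, a replicate block and near-identical copies summed.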

Additional observations from a re-analysis of the deposited data

How the results depend on the processing

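Of 388 log2 changes of 28 named histone genes under 14 alternatives, 385 kept their direction and call; the exceptions were those of HIST1H2AC. They were 0.087 without WT library 2 (limma adjusted p = 0.0427), -0.086 with libraries scaled to equal sums (limma adjusted p = 0.0339) and -0.0081 with quantile normalization. The count of lower histone genes lay between 40 (near-identical copies summed, chosen after seeing the data) and 44 (equal sums), and was 43 without a filter, where HIST1H1T was tested; it was 42 in each leave-one-out fit. The count of higher genes was 2 or 3, the range of the leave-one-out fits. Equal sums moved the median of all genes to -0.12, against 0.014 as deposited, and the split of all calls to 5346 higher and 7715 lower, against 6534 and 6426. Log2 ratios of class sums were then -0.76 for H1, -0.91 for H2A, -1.10 for H2B, -1.24 for H3, -1.25 for H4 and -1.05 for all; quantile normalization gave -0.68 for H1 and -0.96 for all. Leaving out 1 library gave -0.65 to -0.60 for H1, -0.81 to -0.74 for H2A, -0.98 to -0.94 for H2B, -1.14 to -1.08 for H3, -1.15 to -1.08 for H4 and -0.94 to -0.89 for all. Replicate numbers did not pair the libraries (correlations of -0.020, -0.061 and 0.025 between libraries of the same number). With the replicate block, 42 were lower and 3 higher, HIST2H4B becoming called (0.35, limma adjusted p = 0.0448), and the block called 12916 of all genes against 12960. Signs of HIST1H2BE and HIST2H2BD, uncalled throughout, also turned: -0.041 for HIST1H2BE with quantile normalization, and without WT library 1 -0.031 for HIST1H2BE and 0.0025 for HIST2H2BD. Depth limits HIST1H2BE, with 96 estimated reads in the knockout and 53 in WT, and HIST1H2AD, with 99 and 156.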
